A study of Mus musculus with 6 samples.

Results

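The cytosolic ribosomal proteins, the protein parts of the ribosomes that translate most cellular mRNA, were read on arrays of intestinal crypt RNA from mice with and without loss of imprinting at Igf2. Members were all array features, other than controls, whose accession was paired with a symbol of the form Rpl or Rps followed by a digit, plus Rplp0, Rplp1, Rplp2 and Rpsa. Kinases of the Rps6k family and pseudogenes were left out. This gave 133 features for 132 probes of 74 genes, of 41006 probes in all, of which 15429 had a gene symbol (12362 symbols). A total of 38 genes had 1 probe and 36 had more, with the most, 7, for Rpl29. The name pattern also took in Rps19bp1, whose product regulates the deacetylase SIRT1 and is no ribosomal protein, and it misses Fau and Rack1, which are. Of 89 protein-coding symbols in the gene table that fit the pattern, 15 had no paired probe and were not analysed here, among them Rpl4, Rpl5, Rpl12, Rpl32, Rpl34 and Rps15a.

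The LOI(+) group was 3 mice whose maternal chromosome lacked H19 together with the upstream stretch that holds the differentially methylated region. The LOI(-) group was 3 wild-type mice of the same kind of cross, in which the maternal Igf2 copy is silent. All 6 mice were on a C57BL/6 background and aged 120 days, and 4 of them were labelled male while the other two carried no sex label. The deletion is inherited through the germline and also removes H19 itself, so the groups do not differ in Igf2 imprinting alone. Crypts, the glands that hold the dividing progenitors of the gut lining, were cut by laser from the middle of the small intestine. Their RNA was labelled with Cy3 and hybridised, 1 mouse per array, against Cy5-labelled Universal Mouse Reference RNA, which is pooled from cell lines in culture, and the dyes were never swapped.

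Each ribosome has a small subunit, which decodes the mRNA, and a large subunit, which joins amino acids and releases the growing chain through an exit tunnel. The P stalk on the large subunit, made of Rplp0, Rplp1 and Rplp2, recruits the factors that drive translation. In vertebrates the mRNAs of ribosomal proteins start with a C followed by a run of pyrimidines, the terminal oligopyrimidine tract, through which mTOR signalling controls their translation. Ribosomal protein mRNAs are among the most abundant in dividing cells, and several of the free proteins bind the p53 regulator MDM2.

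The probes are 60-base oligonucleotides, and the sequences of those on which the comparisons below turn most are given here from the deposited files. Of the 7 probes of Rpl29 (chromosome 9), these 3 share the 48 bases in capitals, so they are near-copies of each other.

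Rpl29 A_66_P119166: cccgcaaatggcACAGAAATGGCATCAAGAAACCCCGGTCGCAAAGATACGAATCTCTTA
Rpl29 A_66_P126541: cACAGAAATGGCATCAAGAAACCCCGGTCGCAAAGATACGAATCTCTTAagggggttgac
Rpl29 A_66_P139668: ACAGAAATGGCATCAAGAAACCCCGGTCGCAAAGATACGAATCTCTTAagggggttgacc

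The probes of Rpl27a (chromosome 7) differed most from each other in the group comparison. In the first, the 26 bases in capitals also lie within the first 50 bases of the gene in RefSeq, and the second, which was saturated, has no such stretch.

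Rpl27a A_66_P107716: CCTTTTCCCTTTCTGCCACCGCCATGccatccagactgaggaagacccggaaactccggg
Rpl27a A_66_P102198: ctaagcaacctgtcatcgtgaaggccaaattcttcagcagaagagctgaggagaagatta

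Rpl39l (chromosome 16) and Rpl22l1 (chromosome 3) are paralogs of Rpl39 and Rpl22, and their probes gave the lowest and the third highest crypt over reference ratio among genes with an unsaturated probe. Nothing is marked by capitals in these.

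Rpl39l A_66_P122366: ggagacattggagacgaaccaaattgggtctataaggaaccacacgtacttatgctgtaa
Rpl22l1 A_66_P101340: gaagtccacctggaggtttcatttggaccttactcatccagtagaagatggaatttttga

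Signal was high for most members, and many reached the scanner's ceiling. All 132 member probes were brighter on all 6 arrays than 95% of the features that serve as negative controls (439 to 449 in Cy3). The median Cy3 signal of a member feature was 20960, 33200 and 25700 on LOI(+) arrays 1 to 3, against 23830, 16810 and 22300 on LOI(-) arrays 1 to 3, while the median over all features was 546 to 594. LOI(+) 2 was the brightest array for members and LOI(-) 2 the dimmest, and the groups overlapped. Igf2, read as the gene of the targeted region, differed by -0.0024 ± 0.058 (log2, SE) between LOI(+) and LOI(-) (adjusted p 0.997, limma), and no probe was paired with H19, so the deletion was not checked by the deleted gene. Across the marker lists, the median log2 crypt over reference ratio was 3.13 for crypt epithelium (7 of 11 genes with a probe), 5.84 for goblet cells and 4.37 for villus enterocytes (4 of 8), which are not crypt cells. For Paneth cells it was 4.21, a lower bound, since that median probe was saturated in Cy3 on all 6 arrays. It was -2.63 for fibroblasts and -1.41 for myeloid cells, and between -0.04 and 0.08 for smooth muscle, endothelium, acinar cells, B cells and T cells. Some probes of the lists near 0 were hardly above the negative controls, with Prss2 above them on 0 arrays and Tie1 on 2. A ratio near 0 on such a probe does not show a level equal to the reference. Members of a list also differed, with Mylk at 1.61 and Actg2 at -0.76, and Ms4a1 at 0.91 and Cd79b at -1.865. By array the villus median ran from 4.46 to 5.54 in LOI(+) crypts and from 3.81 to 4.56 in LOI(-) crypts. The 5.54, on LOI(+) 2, was taken without Apoa1 (mean ratio 3.31), which had no value on that array, so it is not like the other medians. LOI(+) 1 and LOI(+) 3 were at 4.46 and 4.57. The part of villus cells in the values below was not tested.

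A spot is saturated when its pixels reach the top of the detector's range, so that its reading is only a lower bound. In Cy3, the crypt channel, 7, 25 and 15 member features were saturated on LOI(+) arrays 1 to 3, against 15, 2 and 7 on LOI(-) arrays 1 to 3. In Cy5, the reference channel, 70 to 75 were saturated on every array. By probe, 56 (46 genes) were saturated in neither channel on any array, 50 were saturated in Cy5 on 1 or more arrays but never in Cy3, and 26 (20 genes) were saturated in Cy3 on 1 or more arrays. The 20 genes with a probe saturated in Cy3 were Rpl3, Rpl7a, Rpl8, Rpl13, Rpl21, Rpl27a, Rpl29, Rpl41, Rplp0, Rplp1, Rpsa, Rps2, Rps9, Rps10, Rps18, Rps19, Rps20, Rps21, Rps23 and Rps28. A total of 70 probes were saturated in Cy5 on all 6 arrays. For 28 genes every probe was saturated in a channel on some array: Rpl7, Rpl11, Rpl13, Rpl19, Rpl27, Rpl28, Rpl30, Rpl31, Rpl35, Rpl35a, Rpl37a, Rplp1, Rps3, Rps4x, Rps6, Rps9, Rps10, Rps13, Rps14, Rps16, Rps18, Rps19, Rps20, Rps21, Rps23, Rps24, Rps28 and Rps29. By contrast, 27 genes had no saturated probe, among them Rpl10, Rpl13a, Rpl14, Rpl15, Rpl22, Rpl36al, Rplp2 and Rps15.

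**Figure D1:**
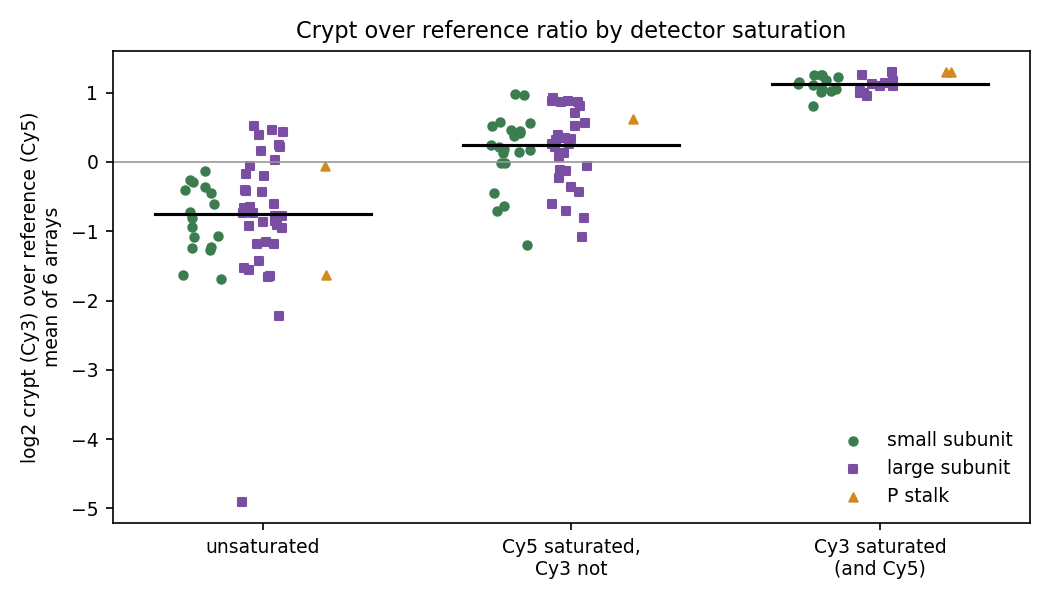
Mean log2 ratio of crypt (Cy3) over reference (Cy5) signal of each ribosomal protein probe over the 6 arrays, by detector saturation, with symbols for the subunit and a bar at the median of each class. The medians were -0.76 for unsaturated probes, 0.25 for probes saturated in Cy5 alone and 1.13 for probes saturated in Cy3, which are readings at the ceiling and not measured ratios; Rps19bp1 is not drawn.

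Among unsaturated probes, ribosomal protein signal was lower in crypts than in the reference pool. Their median log2 crypt over reference ratio was -0.76, a 1.69-fold excess in the reference, and 48 of 56 lay below 0. The median over all unsaturated probes was -0.01, a value that loess within arrays sets close to 0, so it is no measured background. Small subunit probes stood at -0.81 (17 probes of 15 genes) and large subunit probes at -0.74 (36 probes of 28 genes). The dyes were not swapped, and the level depends on the scaling, with a median of -1.26 when arrays are centred on their median in place of loess. A Cy5 reading at the ceiling is a lower bound of the reference, so the ratios of saturated probes were not set against these. How much of the distance between the classes comes from the ceiling was not tested.

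The ratio spread widely among unsaturated genes, taken as 1 probe a gene. Rpl36al, a retained copy of Rpl36a, was highest at 0.47, followed by Rpl21 at 0.43 on a dim probe (mean Cy3 of 558) and Rpl22l1 at 0.38. Rpl7l1, a paralog of Rpl7 that acts in pre-ribosome assembly, had 0.24, Rpl23, which binds MDM2, 0.16, and Rpl39, which lines the exit tunnel, 0.03. The probes of Rpl7l1 and Rpl39 were dim too, with a mean Cy3 of 489 and 640 and a mean Cy5 of 466 and 802.5. The Rpl21 probe had a mean Cy5 of 542, so the ranks of Rpl21, Rpl7l1 and Rpl39 rest on little signal in either channel. At the low end were Rpl39l, a paralog known from the testis, at -4.90, then Rpl3, a protein of the peptidyl transferase centre, at -2.22. Next came Rpsa, the laminin receptor precursor, at -1.69, Rpl9 at -1.65, Rplp0, the base of the stalk, at -1.63, and Rpl10, which joins the large subunit late in assembly, at -1.53. The Cy3 signal of Rpl39l was 464, 479 and 453 in LOI(+) crypts and 470, 467 and 452 in LOI(-) crypts, just above the negative controls, while its Cy5 signal was 5385 to 5929. Rpl3, Rplp0 and Rpsa also had saturated probes, for which no ratio is given. The Rpl3 probe read here had a mean Cy3 of 902, against 52810 on its saturated probe. That of Rplp0 had 1176, against 42270 and 65520. These low ratios are therefore readings of single probes and not levels of the genes.

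**Figure D2:**
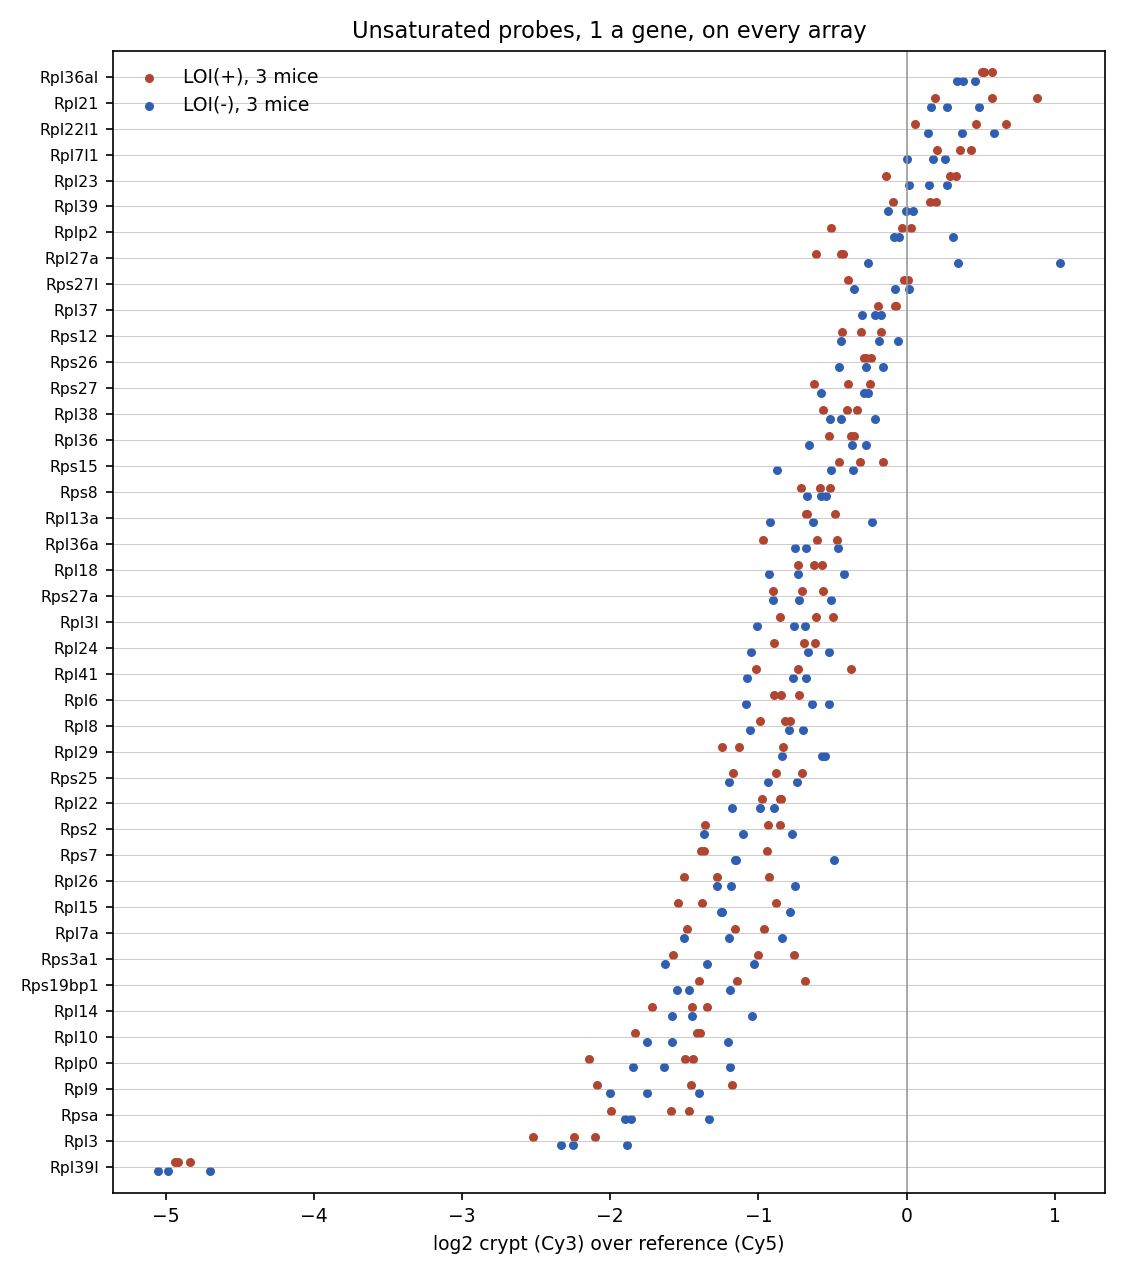
Log2 crypt over reference ratio of the brightest unsaturated probe of each of 43 genes on every array, LOI(+) in red above LOI(-) in blue, ordered by the mean. Ratios ran from 0.47 for Rpl36al to -4.90 for Rpl39l. The groups were apart in 1 gene with LOI(+) higher and 1 with LOI(+) lower, beside 11.3% of all probes (6.26% higher and 5.04% lower).

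The members moved together from array to array, and this spread was wider than the difference between groups. The median ratio of the 56 unsaturated probes was -0.94, -0.70 and -0.62 on LOI(+) arrays 1 to 3, against -0.68, -0.95 and -0.52 on LOI(-) arrays 1 to 3. LOI(+) 1 and LOI(-) 2 were the low arrays and LOI(-) 3 the high one, and the groups overlapped. On LOI(+) arrays 1 to 3, 49, 14 and 8 of the 56 probes lay below their own mean over the 6 arrays, against 35, 52 and 10 on LOI(-) arrays 1 to 3. The median deviation was -0.23, 0.10 and 0.097 in LOI(+) and -0.024, -0.18 and 0.21 in LOI(-). That of all probes, between -0.017 and 0.009, is held near 0 on every array by loess, so it is no measured background. The median SD of a probe over the 6 arrays was 0.23 for unsaturated members and 0.099 for all probes, most of which were dim (median Cy3 of 546 to 594). Among the most variable were Rpl27a at 0.63, Rpl9 at 0.36 and Rps3a1, an early-assembling small subunit protein, at 0.35. Probes of 1 array share its RNA and its labelling, so these are not independent observations.

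**Figure D3:**
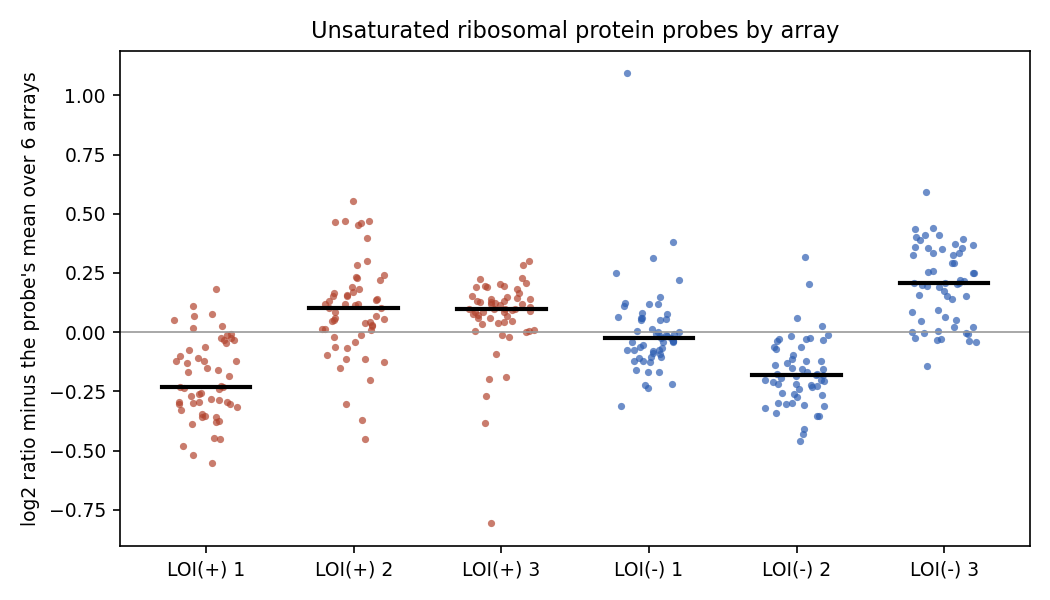
Log2 ratio of each of the 56 unsaturated ribosomal protein probes minus its own mean over the 6 arrays, by array, with a bar at the median. The medians were -0.23, 0.10 and 0.097 on the LOI(+) arrays and -0.024, -0.18 and 0.21 on the LOI(-) arrays, so low and high arrays occurred in both groups.

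Whether ribosomal protein transcripts differ between crypts with and without loss of imprinting was asked in a limma fit over all 41006 probes. No member probe passed an adjusted p of 0.05, and 0% of all probes did. The smallest adjusted p of a member was 0.808. Unadjusted, 10 of 132 member probes had a p under 0.05 (7.58%), 3 higher and 7 lower in LOI(+), beside 6.11% of all probes, 3.82% higher and 2.3% lower. The 10 probes came from 4 genes, with 6 of them from Rpl29, 2 from Rpl36al, 1 from Rpl27a and 1 from Rpl18. Of these probes 7 were unsaturated, 2 higher and 5 lower, and with 1 unsaturated probe a gene the share was 6.52% of 46 genes. With arrays centred on their median in place of loess the split of the 10 such probes was 8 higher and 2 lower, beside 5.485% of all probes. The balance of directions thus rests on the scaling. The 3 LOI(+) arrays lay all above the 3 LOI(-) arrays in 3 member probes and all below in 4, beside 11.3% of all probes that were apart in either direction (6.26% higher and 5.04% lower).

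The median log2 difference, LOI(+) minus LOI(-), was 0.011 over the 132 member probes, with 71 higher and 61 lower, and 0.0023 over all probes. It was 0.0055 for unsaturated members (29 higher, 27 lower), 0.076 for those saturated in Cy5 alone (35 higher, 15 lower) and -0.071 for those saturated in Cy3 (7 higher, 19 lower). In the saturated classes a reading at the ceiling stands in for the true one, so their differences are not measured sizes. The median standard error was 0.14 for an unsaturated member and 0.078 for all probes. Most of all probes were dim, with a median Cy3 of 546 to 594 by array against negative controls at 439 to 449. How the precision compares at like signal was not tested. Without LOI(-) 2 the median of the unsaturated members was -0.11, and without LOI(-) 3 it was 0.12, so its sign rests on single arrays. Fewer cells and less RNA per cell of a type cannot be told apart in these bulk samples.

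**Figure D4:**
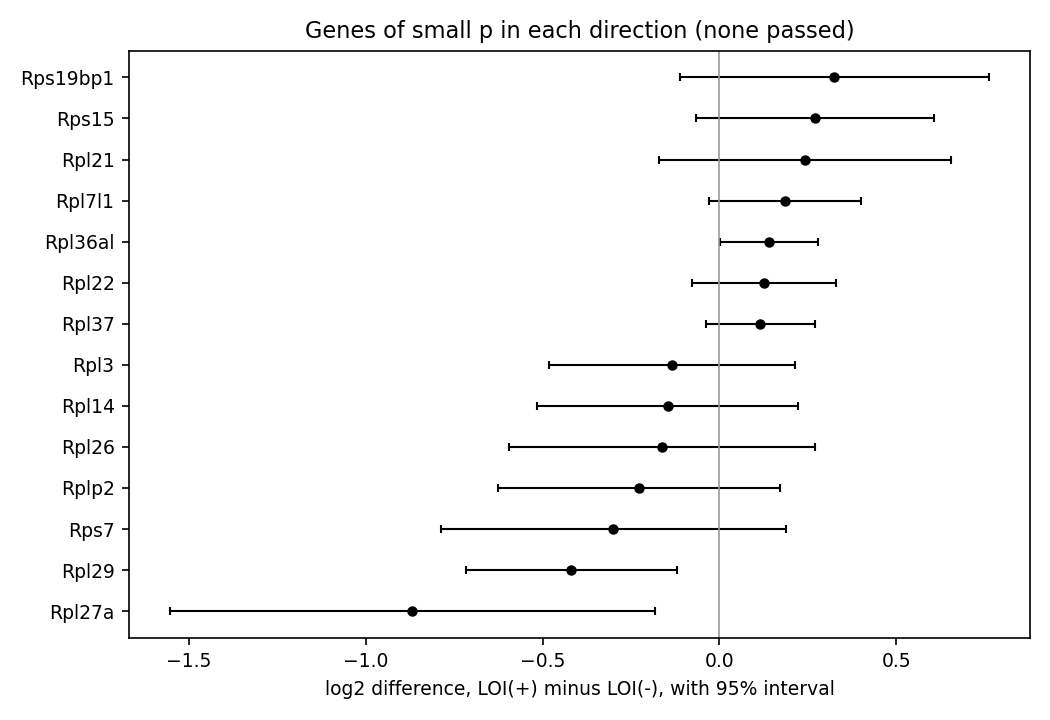
Log2 difference, LOI(+) minus LOI(-), of 14 genes of small p, 7 in each direction, among unsaturated probes (1 probe a gene), with the 95% interval of the limma fit. Intervals of 3 genes, Rpl36al, Rpl29 and Rpl27a, exclude 0 before adjustment, and none of these genes passed after it.

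Rpl29, a large subunit protein that is also known to bind heparan sulfate, was lower in LOI(+) on all 4 of its unsaturated probes, though none passed. On its brightest unsaturated probe, A_66_P119166, the log2 ratio was -1.25, -0.84 and -1.13 in LOI(+) crypts, against -0.55, -0.84 and -0.57 in LOI(-) crypts. LOI(+) 2 and LOI(-) 2 were level on it, so the groups just met. The difference was -0.42 ± 0.13 (SE, n = 3 each), a fold of 0.748 (adjusted p 0.808, limma). The 2 near-copies of this probe, A_66_P139668 and A_66_P126541, gave -0.37 and -0.36. The fourth unsaturated probe, A_66_P116696, was dim, with a mean Cy3 of 703, and gave -0.58 ± 0.21. Its log2 ratio was 0.087, 0.27 and -0.60 in LOI(+) crypts, against 0.59, 0.53 and 0.38 in LOI(-) crypts, so the groups were apart. With 1 array left out its difference was -0.75 to -0.32.

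The other probes of Rpl29 were saturated, so they give no measured difference. On A_66_P109229 and A_66_P101491, which share 27 bases, Cy5 was at the ceiling on all 6 arrays. The Cy3 signal of A_66_P109229 before normalization was 43900, 63660 and 41180 in LOI(+) crypts, against 63140, 41610 and 47200 in LOI(-) crypts. The groups overlapped in it, with LOI(+) 2 the brightest array for members and LOI(-) 2 the dimmest. In the normalized log2 ratio, with Cy5 at the ceiling, the groups were apart. It read 0.79, 0.81 and 0.62 in LOI(+) crypts, against 1.18, 0.90 and 0.95 in LOI(-) crypts. The sign of the 4 unsaturated probes held under every alternative setting in which they had a value. Several of these probes overlap and all are paired with the same gene, so they are not independent readings.

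Rpl36al was higher in LOI(+) on both of its probes, which share 48 bases and were saturated on no array. On A_66_P139426 the log2 ratio was 0.59, 0.66 and 0.62 in LOI(+) crypts, against 0.43, 0.35 and 0.48 in LOI(-) crypts. On A_66_P102670 it was 0.58, 0.52 and 0.51 in LOI(+) crypts, against 0.38, 0.34 and 0.46 in LOI(-) crypts. The groups were apart on both, by 0.20 ± 0.059 and 0.14 ± 0.059 (SE, n = 3 each), at adjusted p of 0.808 and 0.81 in limma, and the second was 0.28 with arrays centred on their median. Its parent Rpl36a, on chromosome X, differed by -0.05 ± 0.14.

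Rpl27a, a large subunit protein, had probes that disagreed. On A_66_P107716, which matches the start of the gene, the log2 ratio was -0.61, -0.43 and -0.44 in LOI(+) crypts, against 1.03, -0.26 and 0.35 in LOI(-) crypts. All LOI(+) arrays lay below all LOI(-) arrays, but the LOI(-) mice ranged over more than the distance between the group means. Its difference stood at -0.87 ± 0.29 (adjusted p 0.808, limma), and at -0.54 without LOI(-) 1. The other unsaturated probe, A_66_P122990, gave 0.29 ± 0.17, and the remaining ones were saturated. Of 8 genes with more than 1 unsaturated probe, 5 had probes of opposite sign, and the next widest distance was in Rpl14, with 0.12 and -0.15.

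**Figure D5:**
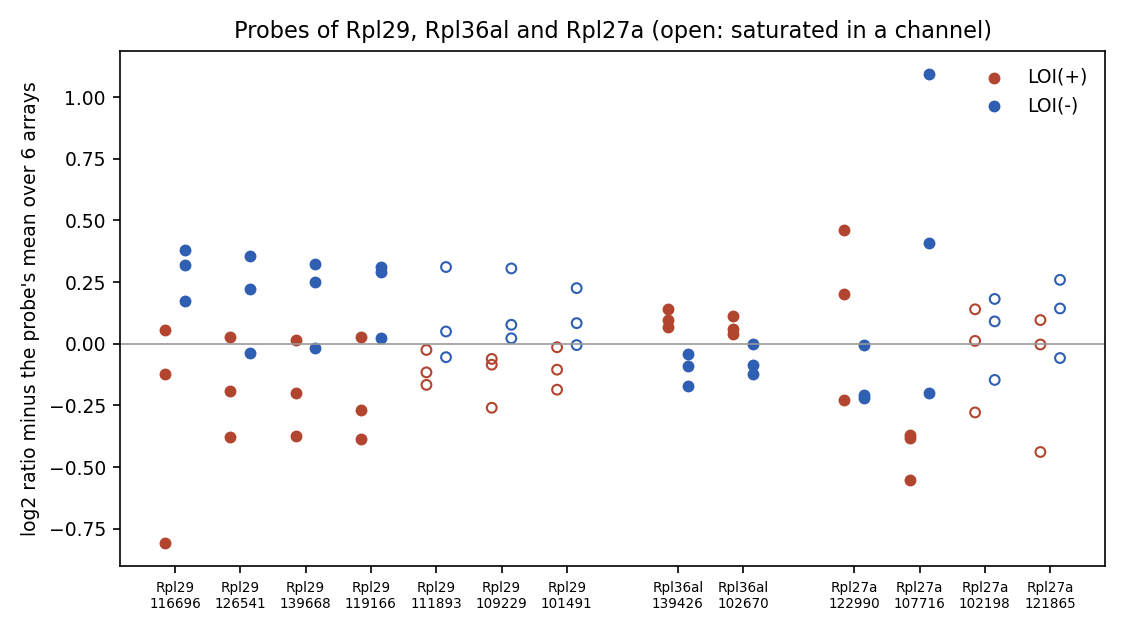
Log2 ratio minus the probe's mean over the 6 arrays for every probe of Rpl29, Rpl36al and Rpl27a, LOI(+) in red left of LOI(-) in blue, with open symbols for probes saturated in a channel on some array and the last digits of the probe name below. The 4 unsaturated Rpl29 probes differed by -0.58 to -0.36 and the 2 Rpl36al probes by 0.14 and 0.20, while the 2 unsaturated Rpl27a probes differed by -0.87 and 0.29.

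Among small subunit genes, 0 of 51 probes had an unadjusted p under 0.05 in limma, beside 6.11% of all probes. The median difference of the 17 unsaturated ones was 0.0015, with 9 higher and 8 lower. Rps15, which sits at the decoding site, had log2 ratios of -0.46, -0.16 and -0.31 in LOI(+) crypts, against -0.51, -0.88 and -0.36 in LOI(-) crypts, a difference of 0.27 ± 0.14 (SE) that was 0.12 without LOI(-) 2. Rps7, which binds MDM2, had -1.37, -1.39 and -0.94 in LOI(+) crypts, against -1.16, -1.15 and -0.49 in LOI(-) crypts, a difference of -0.30 ± 0.21. That difference was -0.078 without LOI(-) 3 and -0.0012 with only the 4 mice labelled male. The groups overlapped in both genes.

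In the large subunit 10 of 75 probes had an unadjusted p under 0.05 (13.3%, beside 6.11% of all probes), 6 of them the partly overlapping probes of Rpl29. The difference between the subunits was not tested, and the median of its 36 unsaturated probes was 0.012. The Rpl18 probe among the 10 was at the ceiling in Cy5 on all 6 arrays, so its difference is not a measured size, and the unsaturated Rpl18 probe gave 0.05 ± 0.13 with overlapping groups. Rpl22, of the exit tunnel list, differed by 0.13 ± 0.086, Rpl37 by 0.12 ± 0.065 and Rpl21 by 0.24 ± 0.18. Without LOI(-) 2 Rpl22 was at 0.048, and Rpl21 was at 0.076 without LOI(+) 2 and at 0.42 without LOI(+) 1. Rpl3 gave -0.13 ± 0.15, Rpl14 -0.15 ± 0.16 and Rpl26, known to bind p53 mRNA, -0.16 ± 0.18, and without LOI(-) 3 they were at 0.00012, 0.012 and -0.0024. The probes of Rpl37, Rpl21 and Rpl26 were dim, with a mean Cy3 of 499, 558 and 641.

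The stalk genes were read with few unsaturated probes. Rplp2 had -0.03, -0.51 and 0.03 in LOI(+) crypts, against -0.06, -0.09 and 0.31 in LOI(-) crypts, a difference of -0.23 ± 0.17 (SE). LOI(+) 2 was the lowest array and LOI(-) 3 the highest, and with only the 4 mice labelled male, which leaves out both, the difference was 0.070. Rplp0 gave -0.14 ± 0.23 on its unsaturated probe. Rplp1 had a single probe, saturated in both channels on all 6 arrays. Probes of 6 genes, Rplp0, Rplp1, Rps10, Rps18, Rpl13 and Rpl27a, were saturated in Cy3 on all 3 LOI(+) arrays, and on 1 to 3 of the LOI(-) arrays. Their normalized Cy3 means were lower in LOI(+) than in LOI(-), so no bound on a fold in the bright direction could be given.

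By the lists of roles, none of the groups had a member that passed. Unsaturated probes of the list for MDM2 binding and the 5S particle (8 probes) had a median difference of -0.025. None of these was for a 5S gene, since Rpl5 had no probe and Rpl11 only saturated ones. The median was 0.063 for the exit tunnel list (6), in which Rpl4 and Rpl17 had no probe. It was 0.067 for the decoding site and mRNA channel (4, all higher) and -0.015 for Diamond-Blackfan genes (9). The decoding site list also holds Rps30, the product of Fau, which was not counted in it and gave -0.21 ± 0.11 (SE). Over all 15 probes of that list, with saturated ones, 9 were higher and 6 lower. Among the paralogs, Rpl7l1 had 0.21, 0.36 and 0.43 in LOI(+) crypts, against 0.005, 0.18 and 0.26 in LOI(-) crypts, a difference of 0.19 ± 0.091 on a dim probe (mean Cy3 of 489) with overlapping groups, and 0.11 without LOI(-) 1. Rpl22l1 differed by 0.029 ± 0.18, Rpl3l, known from skeletal muscle, by 0.16 ± 0.12, Rps27l, a p53 target, by 0.0015 ± 0.14 and its parent Rps27 by -0.049 ± 0.13. Rpl39l differed by 0.015 ± 0.097 and Rpl39 by 0.12 ± 0.093. Rps19bp1, the pattern match that is no ribosomal protein, gave 0.32 ± 0.18, and 0.13 without LOI(+) 2.

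Translation genes outside the name pattern whose mRNAs are known to carry the same tract were read beside the members. None of 19 with a probe passed, 13 were higher and 6 lower, and the median difference was 0.040. Their median crypt over reference ratio was -0.56, with 16 of 19 below 0. The 19 include Pabpc1, Rack1 and Tpt1, which were saturated in Cy5, so their ratios are readings at the ceiling. Rack1 and Tpt1 read above 0 and Pabpc1 below, and all of these also enter the medians by array. By array the median was -0.70, -0.56 and -0.46 in LOI(+) crypts, against -0.62, -0.82 and -0.50 in LOI(-) crypts, so LOI(+) 1 and LOI(-) 2 were again the lowest of their groups and LOI(-) 2 the lowest of all. Naca, the nascent chain complex subunit, differed by 0.25 ± 0.15 and Eif3k by 0.33 ± 0.18. Of the ribosomal proteins that the pattern misses, Fau gave -0.21 ± 0.11 and Rack1 was saturated in Cy5. Of 11 initiation factors and kinases with a probe none passed, and 7 were higher.

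The probes themselves differed in sequence by saturation class. The polyadenylation hexamer AATAAA or ATTAAA, read on the given strand, was in 5 of 56 unsaturated member probes (8.93%), 20 of 50 saturated in Cy5 alone (40%) and 9 of 26 saturated in Cy3 (34.6%), beside 10.1% of all probes. By contrast, 4 member probes, for Rps25, Rpl26, Rpl27a and Rpl15, matched the first 50 bases of their gene, and all 4 were unsaturated. A total of 21 member probes of 12 genes shared a run of 20 or more bases with 20 probes that were not members, so signal from related transcripts cannot be told apart there, and no probe shared such a run with another member gene.

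Promoters in RefSeq (GRCm38.p6) were searched for a run of 8 or more C or T bases on the gene's strand that overlapped the 10 bases on either side of the start. Such a run was in 26 of 67 member promoters (38.8%), which matched 57 genes, in 6 of 14 promoters of the other tract-bearing genes (42.9%) and in 13.7% of all promoters. The stretch from 40 bases before the start to 10 after it is given for 4 genes described above, with the run in capitals where there is one. Rpl27a, lower on the probe at its start, and Rpl18 have a run, of 20 and 10 bases in all, which goes on past the last letter shown, while Rpl36al and Rps15 have none in the window.

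Rpl27a chr7:109519155-109519204 (+): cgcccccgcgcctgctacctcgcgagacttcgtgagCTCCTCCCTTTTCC
Rpl18 chr7:45718031-45718080 (+): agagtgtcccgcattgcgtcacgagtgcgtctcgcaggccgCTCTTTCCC
Rpl36al chr12:69184058-69184107 (-): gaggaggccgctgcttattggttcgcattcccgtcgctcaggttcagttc
Rps15 chr10:80292391-80292440 (+): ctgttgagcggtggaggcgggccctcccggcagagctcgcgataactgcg

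A run at an annotated start is a description of these letters, and starts in crypts were not measured.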

How the data were processed

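Per the file headers, the deposited scanner output came from version A.7.5.1 of Agilent Feature Extraction. The intensity values deposited by the authors are, per the file headers, a mean signal and a median local background per feature and channel, before normalization, with flags for saturation and outliers. A table of log10 values, also deposited, served as an alternative and matched log10 Cy3 minus log10 Cy5 plus a mean over arrays (r of 0.998 or more). The authors' group tests are not given in the sources used here.

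In limma 3.58.1 (R 4.3.3), mean signals were corrected with normexp (offset 50) and loess within arrays, controls at weight 0. Outlier-flagged features were dropped, and saturated features stayed in. Each value is log2(Cy3/Cy5), averaged over spots of the same probe. All 41006 probes were fitted singly, because the brightest probe of a gene is the likeliest to be saturated, with lmFit, eBayes and Benjamini-Hochberg adjustment, two-sided, at 0.05. The number of arrays, 3 per group, limits the precision.

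Accessions were paired with a RefSeq gene table of GRCm38.p6. Members, gene lists and tests were chosen with earlier results of these data known. Named genes were the 8 of smallest p per direction among unsaturated genes, the 6 highest and 6 lowest ratios, the 4 of largest SD, the genes whose unsaturated probes differed most, the paralogs, and genes saturated in Cy3 on every array of a group. Rpl18, Naca, Eif3k and further genes listed by saturation were named after their values were seen. Replicate numbers did not pair the arrays (r of -0.084, -0.25 and 0.35). The LOI(-) images were all extracted before the LOI(+) images, on 1 day, and this order and the groups cannot be told apart. The fit was tested on simulated data. Some genes that these rules name are not reported here.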

Additional observations from a re-analysis of the deposited data

How the results depend on the processing

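No member passed under any of the 20 alternative settings. The count of members at an unadjusted p under 0.05, 10 at the main setting, was 6 (1 higher, 5 lower) with the processed signals, the deposited log10 table, an intensity trend with robust prior or only the 4 mice labelled male. The share over all probes at these settings was 6.26%, 6.25%, 6.175% and 4.57%. The count was 5 (3 higher, 2 lower) with Cy3 alone, beside 4.83% of all probes. With the brightest probe of each gene it was 3 of 74 member probes (2 higher, 1 lower), beside 6.155% of all probes kept. Leaving out 1 array gave 5 to 15, with 5 without LOI(-) 1 or LOI(+) 3 and 15 (11 higher, 4 lower) without LOI(+) 1, while the share over all probes was 5.52%, 5.85% and 8.77%. With the replicate block the count was 11 (3 higher, 8 lower), beside 6.39% of all probes, and the numbers do not pair the arrays. The median crypt over reference ratio of unsaturated members was -1.26 with median centring, and -0.79 to -0.70 with 1 array left out. Leaving out 1 array moved the median difference to between -0.098 and 0.088 over all members and to between -0.11 and 0.12 over unsaturated ones. Among the 16 genes named by smallest p, the sign turned in 5 values and held in 308. Rpl37 was at -0.066 with Cy3 alone, Rplp2 at 0.070 and Rpl26 at 0.020 with only the labelled males, and without LOI(-) 3 Rpl14 was at 0.012 and Rpl3 at 0.00012 (with 1 array left out, -0.26 to 0.012 and -0.23 to 0.00012). The causes were not tested. Leaving out Rps19bp1, chosen after seeing the data, changed no count. Saturation leaves 28 genes with no fully measured probe, and Cy3 alone and the deposited table give no crypt over reference ratio.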

Other observations

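Some probes that are not members share sequence with those of Rpl29 and Rpl27a, and they are unnamed here. A probe sharing 32 bases with an Rpl29 probe had a log2 difference, LOI(+) minus LOI(-), of -0.38 ± 0.14 (SE) (adjusted p 0.808, limma), and a dim one sharing 22 bases, at a mean Cy3 of 469, had -0.29 ± 0.13 (adjusted p 0.823). A probe sharing 25 bases with the Rpl27a probe at the start of the gene gave 0.26 ± 0.28, opposite in sign to the -0.87 ± 0.29 of that probe. A probe sharing 28 bases with an Rpl13 probe gave 0.17 ± 0.083, with all LOI(+) arrays above all LOI(-) arrays, while the Rpl13 probe was saturated in Cy5.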
